A study of Homo sapiens with 18 samples.

Results

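The snoRNA host lncRNAs are long noncoding RNA genes that carry small nucleolar RNAs (snoRNAs) in their introns. They were taken here as every counted gene whose symbol is SNHG followed by a number, plus GAS5 and ZFAS1. The rule found 30 genes among the 61487 counted in each library. All 30 are annotated as lncRNAs, and 23 of them reached a mean of 5 CPM (counts scaled to a library total of 1000000 gene counts) in at least 1 group of libraries.

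A host gene of this kind yields 2 products from 1 transcript: the intron gives the snoRNA, and the joined exons leave as a spliced, polyadenylated RNA. Many box C/D snoRNAs guide methylation of ribosomal RNA and many box H/ACA snoRNAs guide its pseudouridylation, so those small RNAs serve ribosome production. The spliced RNAs often begin with a run of pyrimidines, as ribosomal protein mRNAs do, and several are known to be bound by ribosomes and cleared by nonsense-mediated decay, because their reading frames are short. GAS5 and several SNHG genes are widely studied in lung and other cancers as RNAs that alter growth.

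The cells were NCI-H1975, an established lung adenocarcinoma line, in 18 libraries that form 6 groups of 3. Scramble cells served a search for lncRNAs with coding potential. sgControl cells carry a CRISPR control, and sgDAMP cells a CRISPR knockout of the peptide DAMP, which is encoded by DSP-AS1. Each condition was measured as poly(A)-selected mRNA and as ribosome footprints, the RNA pieces left after cycloheximide, nuclease digestion and depletion of ribosomal RNA. No clone, guide or passage is named for the edited cells, and nothing says that the 3 libraries of a group came from separate cultures, so p-values measure the spread between these libraries, which may be technical.

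Gene counts per library were 10859527 to 12424884 in Scramble mRNA and 17098397 to 17464782 in the other mRNA libraries. Footprint libraries held 1035159 to 1302852 gene counts in Scramble cells, 6845899 to 7840852 where the control guide was used (sgControl), and 6207783 to 6864945 after the knockout. Protein-coding genes took 20.2%, 19.5% and 6.37% of the gene counts in the 3 Scramble footprint libraries, so the third library stood apart. They took 78.9% to 79.3% in the footprints of sgControl and 76.3% to 76.6% in those of sgDAMP. Reads with more than 1 position made up 45.2% to 48.2% of the Scramble footprint reads and 23.6% to 25.2% of the others. Reads outside every annotated feature made up 42.5% to 43.2% of Scramble mRNA reads and 1.1% to 1.43% of the other mRNA reads, so the Scramble libraries stand apart from the rest. The 3 footprint libraries of sgControl differed from each other by no more than sampling noise (mean chi-square per degree of freedom 0.909), and so did those of sgDAMP (0.910). Each of these groups was therefore summed and counted as 1 sample. DSP-AS1, the targeted gene, had 175, 176 and 216 footprints in sgControl and 0, 1 and 1 in sgDAMP, while its mRNA counts were 299, 328 and 309 in sgControl, against 319, 324 and 336 in sgDAMP. Of 6 epithelial carcinoma markers 4 were at 5 CPM or more in every mRNA group, and the other 2 were under 1 CPM there. The lung lineage markers NKX2-1, NAPSA and SFTPB were all under 1 CPM. Leukocyte and endothelial markers were under 1 CPM in mRNA, and so were 4 of 5 fibroblast markers.

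The RefSeq start sites (GRCh38.p14) were read for the feature that many of these genes share with ribosomal protein genes. The windows below run from 10 bases before the annotated start to 20 bases from it, 5′ to 3′ on the strand of the gene, for the genes on which the results turn. Capitals mark the longest run of C and T that begins within 4 bases of the start. Only the 4 bases before the start and the first 12 from it were searched, and a run crossing an edge was cut there. At SNHG8 another C precedes the capitals, so its full run begins earlier, and the 5 bases marked are what is counted below.
SNHG5: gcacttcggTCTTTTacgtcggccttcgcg
SNHG1: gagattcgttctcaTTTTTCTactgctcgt
SNHG16: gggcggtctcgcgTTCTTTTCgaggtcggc
ZFAS1: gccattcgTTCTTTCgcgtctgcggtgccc
SNHG32: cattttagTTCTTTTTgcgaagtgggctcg
SNHG12: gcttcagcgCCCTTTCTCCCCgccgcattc
SNHG8: ctcggcCTTTCacattcgggaagcgtcggg
SNHG29: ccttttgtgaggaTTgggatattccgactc
GAS5: tcatgaaTTCagatgtgtttattttggagc
Start sequences were matched for 26 of the 30 genes. A run of at least 5 C or T was found at 16 of the 26 starts (61.5%), against 21.3% of all 35116 RefSeq starts read, 22% of lncRNA starts and 69.1% of 81 starts of cytosolic ribosomal protein genes. A run of at least 7 was found at 34.6% of the members' starts and at 9.12% of all starts. SNHG18 had the longest run (13), and SNHG12 and SNHG4 had runs of 12. The runs of SNHG18 and SNHG4 were cut at the end of the searched stretch and go on beyond it. ZFAS1, SNHG1, SNHG19 and SNHG31 had runs of 7. At the annotated start of GAS5 the run was 3 bases and at that of SNHG29 it was 2. The search read only the strand of the gene and only the start that RefSeq gives, and a match is a description of these letters.

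In poly(A) mRNA the most counted members were SNHG29 and GAS5 in each of the 3 conditions. SNHG29, the host of SNORD49A, SNORD49B and SNORD65 on chromosome 17 (bases 16438987 to 16470648), had 11424, 14296 and 10610 counts in the Scramble mRNA libraries, 33.7% to 36.0% of all member counts there. GAS5, growth arrest specific 5, on chromosome 1 (bases 173863901 to 173869045), had 7495, 9575 and 7380 counts in the same libraries. Both spans overlap a coding gene (LRRC75A and ZBTB37), as do 14 of the 30 members in all. The others are SNHG3, SNHG4, SNHG6, SNHG7, SNHG12, SNHG14, SNHG17, SNHG20, SNHG21, SNHG22, SNHG28 and SNHG31. Whether counting used strand is not stated, so for all of them reads of overlapping genes cannot be told apart. SNHG5, a host of SNORD50A and SNORD50B on chromosome 6 (bases 85677007 to 85678733), had 12, 14 and 17 counts in Scramble mRNA. Members took 13.5% to 15% of all lncRNA counts in Scramble mRNA, 25.4% to 30.1% in sgControl mRNA and 21.7% to 29.1% in sgDAMP mRNA. Levels are not compared between genes beyond these counts, because exon lengths were not at hand.

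In the Scramble cells the footprints of this family were concentrated on 3 genes. GAS5 held 53.7% to 75.7% of the members' footprints, SNHG5 15.5% to 33.9% and SNHG1 7.12% to 14.7%. All members together held 83.0% to 86.5% of every footprint assigned to a lncRNA, against 13.5% to 15% of the lncRNA counts in mRNA of the same cells. Of the 30 members, 6 had at least 10 footprints in each Scramble library (SNHG1, SNHG5, SNHG8, SNHG19, SNHG29 and GAS5), while 24 had at least 10 mRNA counts in each.

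Footprints were then tested against mRNA within the Scramble cells, on the log2 scale with TMM scaling over both assays. The test called 7 of 25 members higher in footprints and 7 lower, 14 in all, where 44.5% of the 14432 genes tested were called (17.1% higher and 27.4% lower). With total-count scaling the split was 5 higher and 19 lower, where 3.33% of all genes were called higher and 90.4% lower. That scaling moved the median gene from -0.68 to -3.53, and values below are on the TMM scale.

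SNHG5 rose the most: 1697, 1528 and 2768 footprints stood against 12, 14 and 17 mRNA counts, in mRNA libraries that were deeper. In CPM its footprints were 1433, 1476 and 2125 and its mRNA 1.03, 1.13 and 1.57. The log2 difference was 13.62 ± 0.66 (SE, adjusted p = 1.08e-15), and every footprint library lay above every mRNA library. GAS5 had footprint levels of 3847, 7206 and 3367 CPM and mRNA levels of 644, 771 and 679.6 CPM, a log2 difference of 5.74 ± 0.40 (SE, adjusted p = 2.75e-12). The second footprint library was the highest of the 3 for GAS5, but not for SNHG5 or SNHG1. SNHG1, a host of 9 annotated snoRNAs on chromosome 11 (bases 62851978 to 62855885), had 936, 677 and 686 CPM in footprints and 113, 134 and 114 CPM in mRNA (5.73 ± 0.37 (SE, adjusted p = 5.88e-13)).

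The other 4 members called higher were far less counted. SNHG25, the host of SNORD104, had 13, 12 and 9 footprints and 0, 0 and 3 mRNA counts (log2 9.38 ± 0.66 (SE, adjusted p = 3.31e-12)). SNHG19, the host of SNORD60, had 39, 23 and 20 footprints and 156, 173 and 150 mRNA counts (log2 3.64 ± 0.27 (SE, adjusted p = 8.91e-12)). SNHG9 had 3, 5 and 0 footprints, none of them in the third library, and 25, 21 and 27 mRNA counts. Its log2 difference was 2.96 ± 0.76 (SE, adjusted p = 0.0026), and with total-count scaling it was 0.12. ZFAS1, the host of the SNORD12 family, had 24, 8 and 4 footprints and 344, 498 and 360 mRNA counts, for a log2 difference of 1.11 ± 0.35 (SE, adjusted p = 0.0129). That call rested on the first footprint library: without it the difference was 0.27 (adjusted p = 0.665), and with total-count scaling it turned to -1.74.

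The members called lower included the most abundant host RNA. SNHG29 had 18, 12 and 15 footprints against the mRNA counts given above, and its log2 difference was -3.43 ± 0.31 (SE, adjusted p = 7.31e-10). SNHG16, the host of SNORD1A, SNORD1B and SNORD1C on chromosome 17 (bases 76557764 to 76565348), had 5, 7 and 3 footprints and 1872, 2108 and 1777 mRNA counts (-2.40 ± 0.32 (SE, adjusted p = 6.78e-07)). SNHG8 had 18, 24 and 15 footprints and 2165, 2518 and 2089 mRNA counts, the smallest called difference (-0.70 ± 0.24 (SE, adjusted p = 0.0186)). Between these lay SNHG7 (-1.40; 11, 14 and 7 footprints, 2025, 2004 and 2069 mRNA counts) and SNHG15 (-1.04; 9, 5 and 5 footprints, 931, 1002 and 887 mRNA counts). SNHG32 stood at -1.19 with 6, 7 and 2 footprints and 809, 931 and 739 mRNA counts. SNHG14, the long host of the SNORD115 and SNORD116 clusters, stood at -1.31 with 4, 1 and 5 footprints and 631, 673 and 508 mRNA counts. The median of all genes tested was -0.68 in the same contrast, so SNHG8 stood near the typical gene. The calls of SNHG8 and SNHG14 were lost when single libraries were left out, with adjusted p up to 0.158 and 0.17. Those of SNHG15 (0.0737 without the second footprint library) and SNHG32 (0.0517 without the first one) were lost as well. The call of SNHG9 was lost without the second footprint library (adjusted p = 0.162).

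The remaining members tested did not pass the threshold. SNHG6 had 15, 13 and 6 footprints and 986, 1299 and 1019 mRNA counts (-0.42), and SNHG17 had 16, 17 and 6 and 1286, 1384 and 1381 (-0.53). SNHG12 had 9, 5 and 13 footprints and 478, 560 and 492 mRNA counts (0.37). SNHG3, SNHG4, SNHG10, SNHG11, SNHG22 and SNHG30 had 0 to 4 footprints in each library. SNHG20 and SNHG26 had none in any Scramble library, which allows up to 0.852 CPM over the group (3 counts of 3521929). Their mean mRNA levels were 4.10 and 5.02 CPM, so footprints were at least 4.81-fold and 5.90-fold lower on the CPM scale. Counting error alone sets these bounds, and they fall short of the median gene tested, which lay at -3.53 on the log2 scale with total-count scaling.

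**Figure D1:**
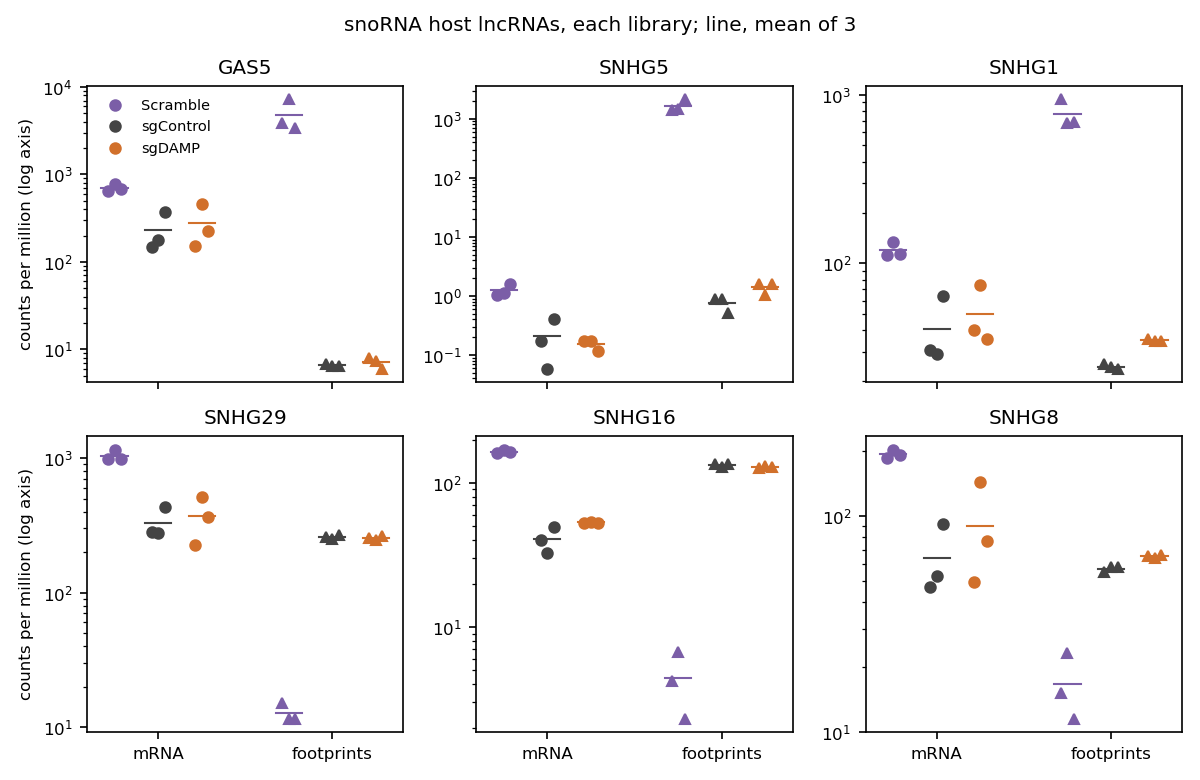
Levels of 6 host lncRNAs in CPM (log axis), with 1 point per library and a line at the mean of 3, circles for mRNA and triangles for footprints. The Scramble footprints of GAS5, SNHG5 and SNHG1 lie above all their other libraries, and those of SNHG29, SNHG16 and SNHG8 lie below all their other libraries.

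The same family looked different in the sgControl and sgDAMP cells. In sgControl footprints GAS5 gave 47, 50 and 50 counts in libraries several times deeper than those of the Scramble cells, or 6.87, 6.38 and 6.42 CPM. SNHG5 gave 6, 7 and 4 footprints and SNHG1 gave 173, 190 and 185. In their place SNHG29 held 36.9% to 38.8% of the members' footprints and SNHG16 held 19.0% to 19.8%, while GAS5 held 0.924% to 1.01%. The sgDAMP footprints had the same leading genes, with SNHG29 at 35.3% to 37.1% and SNHG16 at 18.0% to 18.8%. Members took 23.8% to 25.1% of lncRNA footprints in sgControl and 20.9% to 21.4% in sgDAMP.

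Footprints against mRNA were called for 17 of 25 members in sgControl, 8 higher and 9 lower. Among all 19357 genes tested 69.7% were called, 39.3% higher and 30.4% lower. In sgDAMP 8 members were called higher and 11 lower, where 67.9% of genes were called (38.3% higher and 29.5% lower). The 8 members called higher were the same in both conditions, and the 9 called lower in sgControl were all among the 11 of sgDAMP. Both contrasts come from 1 fit and share its estimate of spread. The summed footprints are 1 sample per condition and were assumed to vary like the mRNA libraries. The 8 higher calls of sgDAMP fell to 5 without its first mRNA library, to 4 without the third one, and to 4 with total-count scaling, where 34.2% of all genes were called higher. Lost with total-count scaling were SNHG3, SNHG9, SNHG26 and SNHG30 (adjusted p = 0.224, 0.122, 0.0779 and 0.193). The same genes were lost without the third library, and SNHG3, SNHG9 and SNHG30 without the first.

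SNHG7 was the most negative of the members called lower. It had 2509, 1889 and 2154 mRNA counts and 9, 21 and 13 footprints in sgControl, a log2 difference of -5.49 ± 0.58 (SE, adjusted p = 7.43e-07). In sgDAMP it had 2039, 1715 and 1819 mRNA counts and 15, 20 and 14 footprints (-5.00). SNHG15 had 2532, 2166 and 3072 mRNA counts and 22, 45 and 28 footprints in sgControl (-4.58 ± 0.59 (SE, adjusted p = 5.21e-06)). It stood at -4.89 in sgDAMP, with 2053, 3388 and 2105 mRNA counts and 23, 23 and 26 footprints.

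GAS5 belonged to this group in both conditions, the opposite of its place in the Scramble cells. Its mRNA counts were 2578, 3073 and 6521 in sgControl, for a log2 difference of -4.58 ± 0.79 (SE, adjusted p = 9.94e-05). In sgDAMP it had 2583, 8041 and 3895 mRNA counts and 49, 50 and 41 footprints (-4.88 ± 0.81 (SE, adjusted p = 7.22e-05)). SNHG17, host of the SNORA71 family, had 2551, 2066 and 2008 mRNA counts and 43, 46 and 56 footprints in sgControl (-3.76), and 2480, 1613 and 2077 and 53, 52 and 53 in sgDAMP (-3.45).

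SNHG6 and SNHG12 were lower in the same way. SNHG6 had 899, 1075 and 1982 mRNA counts and 31, 34 and 30 footprints in sgControl (-3.59), and 498, 1753 and 1033 and 40, 48 and 69 in sgDAMP (-2.58). SNHG12 had 239, 174 and 316 mRNA counts and 9, 8 and 9 footprints in sgControl (-3.03), and 247, 261 and 159 and 9, 13 and 4 in sgDAMP (-2.84). SNHG14 stood at -1.85 and -2.20 with 10 to 15 footprints per library. SNHG11 stood at -1.63 in sgControl, with 584, 525 and 505 mRNA counts and 44, 67 and 43 footprints, and at -1.20 in sgDAMP, with 563, 505 and 525 and 64, 69 and 62. SNHG10 had 2 to 4 footprints per library and stood at -1.76 and -2.04. SNHG4, a host of SNORA74 snoRNAs, and SNHG20 were called in sgDAMP alone (-1.89 and -3.20, against -0.92 and -0.94 in sgControl), and the test of that difference is given below. The sgControl call of SNHG10 was lost with the DESeq2 test (adjusted p = 0.0716), with no filter (0.061) and without single mRNA libraries (up to 0.0982). The sgDAMP call of SNHG11 was lost with no filter (0.0618) and without the third sgDAMP or the second sgControl mRNA library (up to 0.0626). That of SNHG4 was lost without the second sgDAMP mRNA library (adjusted p = 0.0554).

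Among the members called higher, SNHG16 was the best counted. It had 919, 1011 and 1051 footprints and 698, 562 and 865 mRNA counts in sgControl, a log2 difference of 2.26 ± 0.37 (SE, adjusted p = 5.51e-05). In sgDAMP it had 793, 901 and 879 footprints and 903, 941 and 917 mRNA counts (1.72 ± 0.37 (SE, adjusted p = 7.53e-04)). In the Scramble cells the same gene was called lower.

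SNHG25 had 139, 156 and 130 footprints and 21, 4 and 22 mRNA counts in sgControl (4.93), and 109, 109 and 110 and 25, 121 and 87 in sgDAMP (2.30). SNHG9 had 157, 196 and 199 footprints and 166, 116 and 112 mRNA counts in sgControl (2.24), and 74, 101 and 86 and 89, 165 and 123 in sgDAMP (1.29). SNHG26, the host of SNORD93, had 41, 41 and 54 footprints and 5, 12 and 16 mRNA counts in sgControl (3.81), and 28, 31 and 23 and 15, 47 and 18 in sgDAMP (1.85). SNHG25 and SNHG26 had few mRNA counts, and the 3 mRNA libraries of SNHG25 differed by several times.

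SNHG21 had 44, 67 and 56 footprints against 5, 2 and 21 mRNA counts in sgControl (4.35), and 47, 55 and 55 against 7, 15 and 13 in sgDAMP (3.97). SNHG30, the host of SNORD7, had 142, 160 and 142 footprints and 86, 90 and 188 mRNA counts in sgControl (2.07), and 147, 161 and 153 and 122, 329 and 214 in sgDAMP (1.28). SNHG3, the host of SNORA73A and SNORA73B, had 176, 208 and 207 footprints and 182, 152 and 218 mRNA counts in sgControl (1.87), and 179, 170 and 195 and 199, 374 and 338 in sgDAMP (1.07). SNHG5 was also called higher at 2.37 and 3.57, but on 4 to 11 footprints and 1 to 7 mRNA counts per library. Its sgControl call was lost under total-count scaling and the DESeq2 test, with adjusted p of 0.113 and 0.0877.

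The members near the centre of the scale were SNHG29, SNHG1, SNHG8, SNHG19, SNHG32 and ZFAS1. SNHG29 had 1778, 1967 and 2102 footprints and 4859, 4738 and 7513 mRNA counts in sgControl (0.23), and 1567, 1691 and 1796 and 3883, 9005 and 6332 in sgDAMP (-0.11). SNHG8 had 379, 455 and 452 footprints in sgControl and 406, 440 and 452 in sgDAMP. ZFAS1 had 175, 196 and 214 and 166, 201 and 188. None of these 6 passed the threshold in either condition, which does not show that their footprints follow their mRNA.

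**Figure D2:**
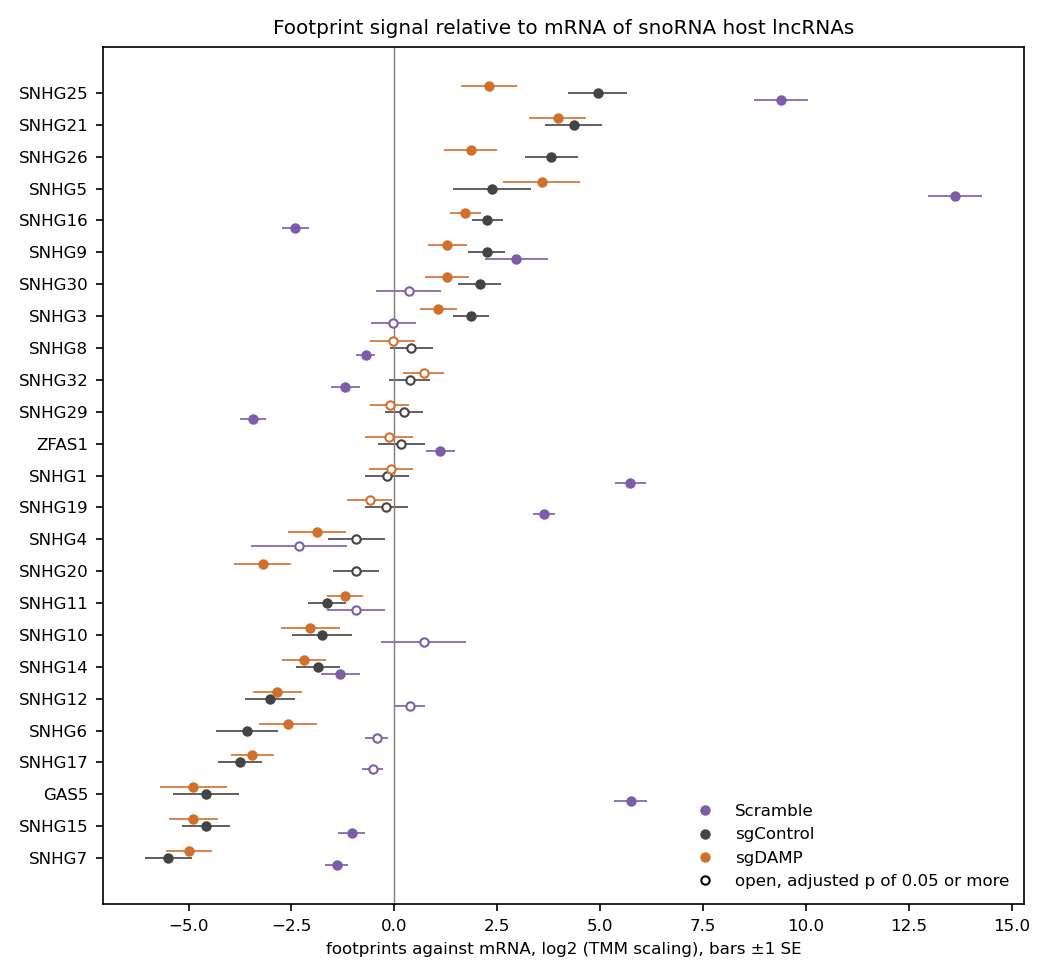
Log2 difference of footprints against mRNA for 25 host lncRNAs (TMM scaling, x axis) in Scramble, sgControl and sgDAMP cells, with bars of 1 SE and open circles where the adjusted p was 0.05 or more. SNHG20 and SNHG26 have no Scramble point because they had 0 Scramble footprints, and GAS5 lies at 5.74 in Scramble cells but at -4.58 and -4.88 in the other conditions.

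The 2 control conditions were set side by side in mRNA. Experiment, depth and the share of reads outside annotated features differ between them together with the condition, so these cannot be told apart. Of 24 members tested, 12 were called higher and 8 lower in Scramble than in sgControl mRNA, where 79.6% of the 16360 genes tested were called (46.1% higher and 33.4% lower). With total-count scaling, and with scaling by protein-coding counts, the split was 15 higher and 4 lower. Of all genes 59.3% were then higher and 19.3% lower by total counts, and 60.3% and 18.4% by coding counts, and the median gene moved from 0.42 to 1.25 and 1.31.

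The higher members had SNHG22 at their head, with 55, 59 and 36 counts against 0, 3 and 0 (5.22). SNHG26 (2.15), SNHG14 (1.73; 631, 673 and 508 counts against 120, 155 and 183), SNHG5 (1.69), SNHG4 (1.37; 133, 139 and 91 against 24, 36 and 58) and SNHG16 (1.18) followed. SNHG29, SNHG12, SNHG8, GAS5, SNHG1 and SNHG32 were higher by 0.46 to 0.83. The calls of GAS5, SNHG1, SNHG32 and SNHG5 were lost when single libraries were left out, at adjusted p up to 0.108, 0.106, 0.213 and 0.0646. The count of higher calls fell to 8 without the second sgControl library and without the third Scramble library.

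The lower members were SNHG9 (-2.69; 2.15, 1.69 and 2.49 CPM against 9.56, 6.78 and 6.41), SNHG19 (-2.11), SNHG15 (-1.71), SNHG11 (-1.49), SNHG17 (-0.97), SNHG30 (-0.92), ZFAS1 (-0.83) and SNHG20 (-0.61). SNHG19 had 13.4, 13.9 and 13.8 CPM in Scramble and 34.3, 27.9 and 37.7 CPM in sgControl. With total-count scaling SNHG20 turned to 0.22, and with scaling by protein-coding counts it turned to 0.28 and ZFAS1 to 0.06, none of them called. Under both scalings SNHG17 and SNHG30 were no longer called either. The call of SNHG20 was also lost when any single Scramble mRNA library was left out (adjusted p up to 0.167). With no filter (0.14) and with the replicate block (0.128) SNHG20 was not called. That of SNHG30 was lost without the first or the third Scramble mRNA library (adjusted p = 0.0697 and 0.0635).

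Whether footprints relative to mRNA differed between Scramble and sgControl cells was tested directly, a comparison added after the data were seen. The sgControl footprints entered it as 1 summed sample that was assumed to vary like the other libraries of the fit. Of 26 members 10 were called higher in Scramble cells and 6 lower, where 37.9% of 20582 genes were called (15.9% higher and 22% lower). GAS5 differed by 10.06 ± 0.82 (SE, adjusted p = 2.85e-08), SNHG5 by 11 ± 1.45 (SE, adjusted p = 5.19e-06) and SNHG1 by 5.64 ± 0.68 (SE, adjusted p = 1.84e-06). SNHG16 differed by -4.89 ± 0.46 (SE, adjusted p = 1.03e-07) and SNHG29 by -3.88 ± 0.46 (SE, adjusted p = 1.38e-06) in the opposite direction. With total-count scaling the split was 5 higher and 10 lower, where 5.39% of all genes were called higher and 36.7% lower, and these 5 genes stayed on their sides of 0 in each alternative run.

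No member passed the test between sgDAMP and sgControl mRNA, and neither did any of the 14032 genes tested (0%). At an unadjusted p under 0.05 there were 741 genes, and 2 of the 24 members, SNHG25 and SNHG4. DESeq2 called 1 gene higher and 20 lower, none of them a member. Of the 24 members 16 had a value above 0 and 8 below it, and their median was 0.19, against 0.03 over all genes tested, 0.19 over 794 other lncRNAs and 0.16 over 35 protein-coding snoRNA hosts.

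SNHG25 had 1.21, 0.234 and 1.26 CPM in sgControl and 1.46, 6.93 and 5.03 CPM in sgDAMP, for a log2 difference of 2.20 ± 0.63 (SE, adjusted p = 0.862). With no filter on low counts it was called at 2.19 (adjusted p = 0.00954). SNHG4 had 1.38, 2.11 and 3.32 CPM and 3.55, 8.25 and 5.5 CPM (1.24 ± 0.43 (SE, adjusted p = 0.862)). SNHG26 differed by 1.15 ± 0.59 (SE, adjusted p = 0.862) and SNHG7, the most negative member, by -0.38 ± 0.26 (SE, adjusted p = 0.862).

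The 2 most counted members did not differ beyond their spread. GAS5 had 148, 179.7 and 373 CPM in sgControl and 150.4, 461 and 225 CPM in sgDAMP, ranges that overlap (0.16 ± 0.42 (SE, adjusted p = 0.939)). SNHG29 had 279.8, 277 and 430.2 CPM and 226, 516 and 366 CPM (0.06 ± 0.33 (SE, adjusted p = 0.97)). Both turned to the opposite sign without the second sgDAMP library, at -0.40 and -0.25, and without the first sgControl library, at -0.06 and -0.01.

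The mRNA libraries of a group also differed among themselves: 20 of 23 members tested in sgControl and 20 of 24 in sgDAMP varied by more than sampling noise, against 75.1% and 79.9% of all genes tested. Over the 6 mRNA libraries the highest level of a member was 1.16 to 29.6 times its lowest, with a median of 2.41 over the 23 members at 1 CPM or more. The second sgDAMP library held the highest level of 16 of the 23 (69.6%), against 30.5% of 11382 protein-coding genes. ZFAS1 had 18.8, 70.1 and 34.4 CPM in the 3 sgDAMP libraries and 30.7, 29.8 and 42.4 CPM in sgControl. SNHG8 had 49.7, 144 and 76.8 CPM and 47.0, 52.7 and 92.2 CPM. The 35 protein-coding snoRNA hosts, mostly ribosomal protein genes, had their highest level in the same library for 28 of 35 (80.0%). The median member lay 0.62 above its mean log2 level there, the median coding host 0.67 and the median protein-coding gene 0.07. The other 7 members had their highest level elsewhere, and SNHG17, with 144, 92.4 and 120.2 CPM in sgDAMP, had its lowest level in that library.

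**Figure D3:**
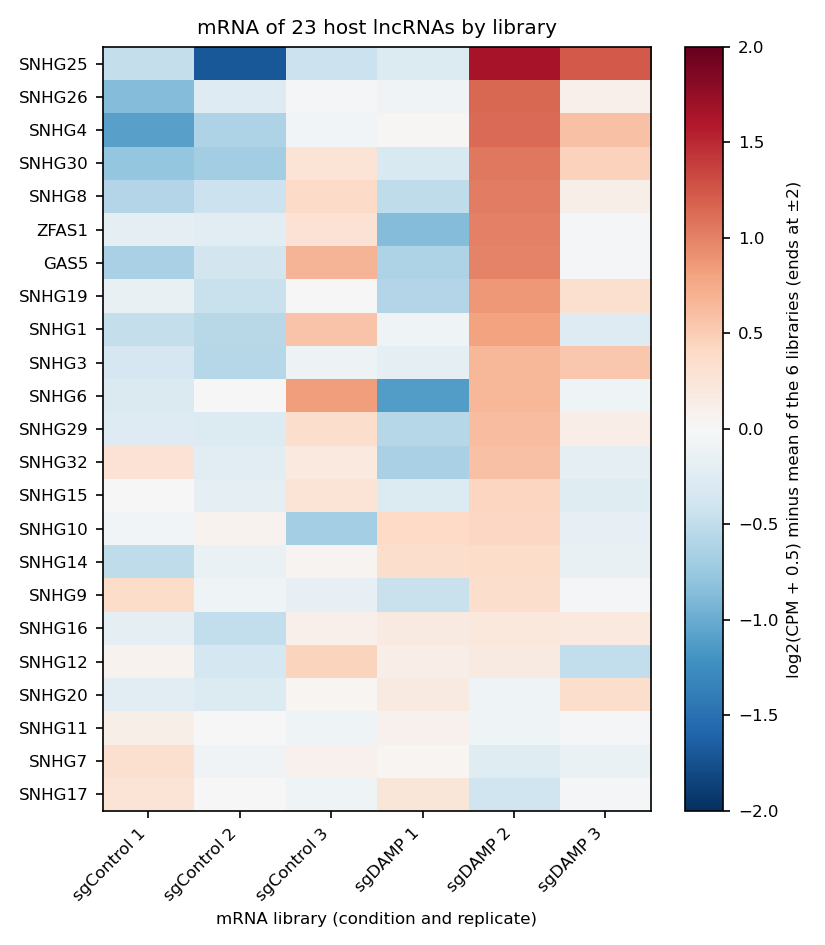
mRNA of the 23 host lncRNAs at 1 CPM or more in the 3 sgControl and 3 sgDAMP libraries, shown as log2(CPM + 0.5) minus the mean of the 6 libraries, with the colour scale ending at 2 in both directions. The column of the second sgDAMP library is red for most genes, and that library holds the highest level of 16 of the 23.

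Footprints were compared between sgDAMP and sgControl as ratios of summed counts with TMM scaling and exact Clopper-Pearson 95% intervals, which cover counting error only and allow no p-value. A gene was called at a 2-fold change with the interval clear of 1, and 9.89% of 12509 genes met this (6.03% higher and 3.86% lower). Of the 20 members tested 1 met it. At 1.5-fold 24% of genes did (13.7% higher and 10.4% lower), with 1 member higher and 2 lower. The intervals of 2 members lay above 1, those of 5 below 1, and 13 included 1, where 59.2% of all genes had an interval clear of 1 (29.6% above it and 29.6% below it). With total-count scaling the median gene moved from 0.01 to 0.22 on the log2 scale, and with scaling by protein-coding counts to 0.27. The share of all genes called at 2-fold was then 9.35% higher and 2.37% lower, and 10.4% higher and 2.23% lower.

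SNHG9, the host of SNORA78 on chromosome 16 (bases 1964996 to 1965504), was the member called lower. It had 157, 196 and 199 footprints in sgControl and 74, 101 and 86 in sgDAMP, a ratio of 0.460 (0.395 to 0.533). Its mRNA differed by -0.20 ± 0.36 (SE, adjusted p = 0.907). With total-count scaling the ratio was 0.534 and with scaling by protein-coding counts 0.553, both short of 2-fold. SNHG26 stood at 0.586 (0.440 to 0.776), from 41, 41 and 54 to 28, 31 and 23 footprints. SNHG6 stood at 1.61 (1.24 to 2.09), from 31, 34 and 30 to 40, 48 and 69.

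SNHG29 and SNHG16, the members with most footprints, were nearer to 1. SNHG16 had a ratio of 0.839 (0.795 to 0.885) and SNHG29 of 0.84 (0.809 to 0.872), and with scaling by protein-coding counts both were 1.01. SNHG25 had a ratio of 0.75 (0.647 to 0.868). SNHG1 had a ratio of 1.23 (1.1 to 1.38), with 221, 239 and 235 footprints in sgDAMP. GAS5 had a ratio of 0.926 (0.729 to 1.17) and ZFAS1 of 0.922 (0.819 to 1.04), both intervals including 1.

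**Figure D4:**
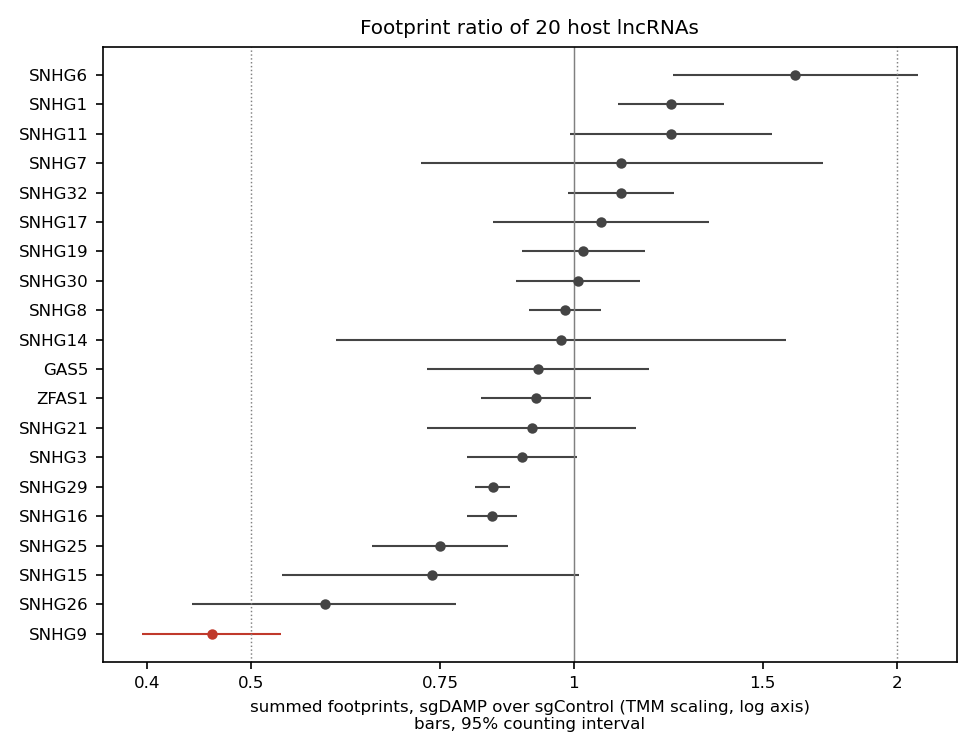
Ratio of summed footprints in sgDAMP over sgControl (log axis) for 20 host lncRNAs, with 95% counting intervals, a solid line at 1 and dotted lines at 2-fold. SNHG9 at 0.460, drawn in red, is the gene past 2-fold, and the intervals of 13 genes include 1.

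The interaction, footprints relative to mRNA in sgDAMP against sgControl, passed for 0 of 25 members and for 0.253% of 19357 genes in edgeR (0.031% higher and 0.222% lower). At an unadjusted p under 0.05 there were 2 members, SNHG20 and SNHG25, against 5.26% of all genes, and DESeq2 called 8 genes higher and 52 lower, with no member among them. SNHG25 stood at -2.64 ± 1.08 (SE, adjusted p = 0.859), with its footprint ratio below 1 and its mRNA value above 0. SNHG20 stood at -2.26 ± 0.85 (SE, adjusted p = 0.802) on 10, 9 and 9 footprints in sgControl and 2, 1 and 4 in sgDAMP. With the footprint libraries taken as replicates SNHG20 was called (adjusted p = 0.0423). SNHG9 stood at -0.95 ± 0.70 (SE, adjusted p = 1) in the same test. SNHG4 stood at -0.96 ± 0.95 (SE, adjusted p = 1). The SE of a member was 0.57 to 1.43 on the log2 scale, with a median of 0.75, so differences of that size could not be resolved, and the absence of calls does not show that footprints followed mRNA.

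The snoRNAs that lie inside the members were followed in the same files, by position in the RefSeq annotation. There are 149 in 29 of the 30 genes, of which 128 have 1 row in the count files, 6 have several and 15 have none. The 15 without a row include 9 of the 11 snoRNAs in GAS5, SNORD50A in SNHG5 and SNORD31 in SNHG1, the 3 genes with most Scramble footprints. Of the 128 counted, 113 were at 0 in all 18 libraries, and SNHG14 alone holds 83 of the 128. The share at 0 among all 555 snoRNA genes counted is not given here. A count of 0 does not show that a snoRNA was absent, because the treatment of reads with more than 1 position is not stated. All snoRNAs together took 0.435% to 0.608% of gene counts in Scramble footprints, against 0.0293% to 0.0360% in the other footprint libraries and 0.00034% to 0.00109% in mRNA. The part of these small RNAs in the footprints of the hosts was not tested.

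SNORA73B, the H/ACA snoRNA inside SNHG3, was counted more in sgDAMP. It had 167, 204 and 173 counts in the sgControl footprint libraries and 358, 464 and 437 in sgDAMP, a ratio of 2.25 (2.03 to 2.49), and of 2.62 with total-count scaling. Its host had a ratio of 0.895 (0.795 to 1.01) in the same libraries. SNORA73B is chosen here after its values were seen, and at 2-fold or more higher it is among the 6.03% of all genes counted above.

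The snoRNAs of SNHG25, SNHG26, SNHG16 and SNHG4 had ratios below 1 between sgDAMP and sgControl with TMM scaling, and this depended on the scaling. With total-count scaling the intervals of SNORD104 (0.916, 0.752 to 1.11) and SNORA74A (0.979, 0.887 to 1.08) included 1. With scaling by protein-coding counts those of SNORD93 (0.868, 0.739 to 1.02) and SNORD1B (0.872, 0.755 to 1.01) did as well. SNORD12C in ZFAS1 went the other way, from 63 counts over sgControl to 80 over sgDAMP. Its ratio was 1.23 (0.876 to 1.745) with TMM scaling, an interval that includes 1. With total-count scaling it was 1.44 (1.02 to 2.03), clear of 1. Scaling by protein-coding counts gave 1.48 (1.053 to 2.098), also clear of 1. Ratios below are on the TMM scale. SNORD104 in SNHG25 had 519, 465 and 745 counts in Scramble footprints, 66, 77 and 89 in sgControl and 63, 59 and 66 in sgDAMP (ratio of sgDAMP to sgControl 0.788, 0.646 to 0.959). SNORD93 in SNHG26 had 487, 445 and 350, then 104, 124 and 134, then 87, 86 and 96 (0.722, 0.614 to 0.848). Its host had no Scramble footprint. SNORD1B in SNHG16 had 209 counts over the Scramble libraries, 449 over sgControl and 335 over sgDAMP (0.725, 0.628 to 0.837). SNORA74A in SNHG4 had 1449, 855 and 741 counts (0.842, 0.762 to 0.930), although SNHG4 itself had 1 Scramble footprint. SNORD123 had 65 counts in Scramble footprints while its host SNHG18 had none in any library.

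**Figure D5:**
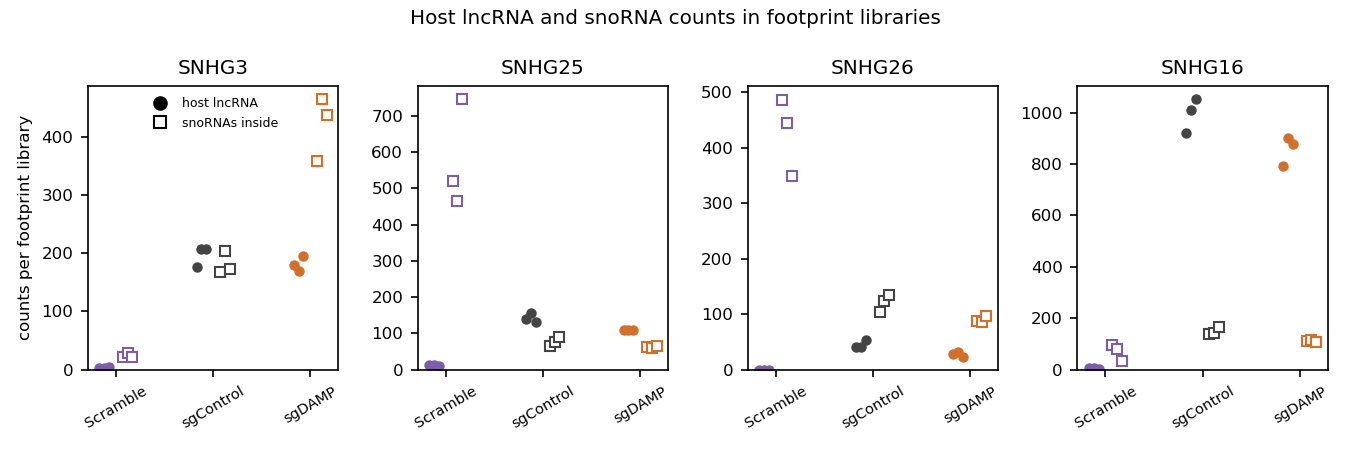
Counts per footprint library of 4 host lncRNAs (filled circles) and of the snoRNAs inside them (open squares) in Scramble, sgControl and sgDAMP cells, with 1 point per library. The snoRNA counts of SNHG3 are higher in sgDAMP than in sgControl, and those of SNHG25 and SNHG26 are highest in Scramble cells, where their hosts are lowest; counts are not scaled for depth.

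Protein-coding snoRNA hosts, core proteins of the 2 snoRNA classes and nonsense-mediated decay factors were counted for context. Of the 35 protein-coding snoRNA hosts, 5 were higher and 21 lower in footprints than in mRNA of Scramble cells (34 tested, median -1.21), led by RPS2 (-5.82), RPL13A (-3.57) and RPL21 (-4.04). In sgControl 9 were higher and 14 lower (median -0.40), and in sgDAMP 6 and 15 (median -0.52). The medians over all genes tested were -0.68, 0.19 and 0.20. Among all genes tested, 17.1% were called higher and 27.4% lower in Scramble cells, 39.3% and 30.4% in sgControl, and 38.3% and 29.5% in sgDAMP. Of the box C/D core proteins FBL, NOP56, NOP58 and SNU13, 2 were higher and 2 lower in each condition. NOP58 went from -1.33 in Scramble cells to 7.27 in sgControl. Of the H/ACA proteins, NOP10 was called higher in Scramble cells (3.06), and DKC1 (3.47) and GAR1 (2.83) in sgControl, where 2 of the 4 were also lower. Of 10 nonsense-mediated decay factors 0 were higher and 6 lower in Scramble cells, among them SMG5 at -2.72 and UPF1 at -2.83. In sgControl 3 were higher and 3 lower. Between sgDAMP and sgControl no gene of these lists was called in mRNA, in footprints or in the interaction.

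The 7 members below 5 CPM in every group were SNHG10, SNHG18, SNHG20, SNHG22, SNHG27, SNHG28 and SNHG31. SNHG18 and SNHG28 had 0 counts in all 18 libraries, SNHG27 had 1 count in all and SNHG31 had 0 to 4 per library. SNHG22 had 36 to 59 counts per Scramble mRNA library and 0 to 4 in every other library.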

How the data were processed

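The data cover 18 libraries of NCI-H1975 cells, 3 per group, with poly(A) mRNA and ribosome footprints from each condition. The values are raw counts per gene that the authors deposited, 1 table per library, with closing lines for reads assigned to no gene, which were kept out of every total. Per the submitters' processing notes, the genome build was GRCh38 and the tools included HTSeq 0.11.2, SAMtools 1.10, HISAT2 2.1.0, Trimmomatic 0.30 and edgeR. Which annotation release was used, whether counting used strand, and what became of multi-mapping reads is not given in the sources used here.

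Gene symbols came from RefSeq-based tables (GRCh38.p14) and named 61369 of 61487 genes. A snoRNA was assigned to a member by its span alone, because strand was not at hand. Genes were filtered with filterByExpr (minimum count 10), scaled by TMM and tested with the two-sided quasi-likelihood test of edgeR 4.0.16 (R 4.3.3). The threshold was 0.05 for p adjusted by Benjamini-Hochberg over all genes tested. SE is the absolute log2 change divided by the square root of F. CPM is relative to the gene counts of a library. Footprint libraries of sgControl and of sgDAMP agreed within sampling noise (chi-square over all but the 1% most variable genes) and were summed. Intervals and floors reflect counting error alone: with no molecular identifiers, reads may repeat a molecule. The scripts were tested on simulated counts.

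The members and gene lists were chosen with earlier results of these data known. Members with a mean of at least 5 CPM in 1 group were named with library values in the comparisons that turn on them, the others by range, and every called member was named. From the other lists up to 3 called genes with the smallest p were eligible. One gene so chosen is not reported here. Same-numbered libraries of different groups correlated at -0.563 to 0.468, so the numbers were not taken as pairs. Alternatives were DESeq2 1.42.0 size factors, total-count scaling, no filter, the DESeq2 Wald test, a replicate block, footprint libraries as replicates and leaving out each library. Scaling by protein-coding counts and the test of Scramble against sgControl footprints relative to mRNA were added after seeing the data.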

Additional observations from a re-analysis of the deposited data

Results flagged for a closer look

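Footprints relative to mRNA differed between Scramble and sgControl cells for 16 of 26 members tested, by the test of the difference itself (edgeR, all 16 at an adjusted p under 0.05), where 37.9% of 20582 genes were called. Library depth, the share of coding footprints, the share of reads outside features and the experiment differ between these cells together with the condition and cannot be told apart from it. The sgControl footprints entered the test of the difference as 1 summed sample. Higher in Scramble cells were SNHG5 (log2 11), GAS5 (10.06), SNHG1 (5.64), SNHG25 (4.27), SNHG7 (3.86), SNHG19 (3.61), SNHG15 (3.32), SNHG12 (3.23), SNHG17 (2.98) and SNHG6 (2.93). Lower were SNHG8 (-1.32), SNHG32 (-1.80), SNHG3 (-2.10), SNHG29 (-3.88), SNHG16 (-4.89) and SNHG26 (-12.00). The value of SNHG26 is set by the prior count of the fit, since it had 0 Scramble footprints, and is no measure of size. The median gene tested stood at -1.66 and the median member at 0.58. With total-count scaling SNHG17, SNHG12, SNHG15, SNHG6 and SNHG25 were no longer called. With scaling by protein-coding counts SNHG8 was no longer called (-0.99, adjusted p = 0.164), nor without the second sgControl mRNA library (0.0853) or the first Scramble footprint library (0.104).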

How the results depend on the processing

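Scaling changed most counts. With total-count scaling footprints against mRNA in Scramble cells gave 19 members lower (90.4% of all genes), those in sgDAMP 4 higher (34.2%), Scramble against sgControl mRNA 4 lower (19.3%), and the added interaction 5 higher (5.39%) and 10 lower (36.7%). Scaling by protein-coding counts also gave 4 lower (18.4%) in Scramble against sgControl mRNA, and both scalings left 0 members lower among sgDAMP footprint ratios (2.37% and 2.23%). A replicate block gave 4 lower in Scramble cells (19.5%), and no filter gave 1 higher in sgDAMP mRNA (0.0182%). With footprint libraries as replicates the interaction gave 1 lower (SNHG20; 1.13%). Footprint ratios at 1.5-fold gave 1 higher (13.7%) and 2 lower (10.4%), and edgeR with libraries as replicates, with or without the replicate block, gave 2 higher (27.7%) and 5 lower (28%). The cause of these changes was not tested.

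Leaving out 1 library gave 4 to 7 members lower and 6 to 7 higher in Scramble cells, with 4 without the first footprint library. It gave 4 to 9 higher in sgDAMP and 8 to 12 higher in Scramble against sgControl mRNA. Signs turned for ZFAS1 in Scramble footprints (-1.74, total count), for ZFAS1 (0.060) and SNHG20 (0.28 by coding counts, 0.22 by total counts) in Scramble against sgControl mRNA, and for SNHG16 and SNHG29 footprint ratios (both 1.01 by coding counts). In sgDAMP mRNA SNHG29 turned to -0.022 with the replicate block. Leaving out 1 library there gave GAS5 values from -0.40 to 0.56 and SNHG29 values from -0.25 to 0.33. With 1 to 7 mRNA counts per sg library, SNHG5 is limited by depth.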
